A study of Homo sapiens with 6 samples.

Results

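SR proteins and the scaffold proteins of nuclear speckles were followed here through their RNA under nutrient deprivation in 95D, an established line of human lung cancer cells. The set held 10 genes, matched by symbol in the deposited tables: the scaffold or scaffold-associated genes SRRM1, SRRM2 and SON, and the SR protein genes SRSF1, SRSF2, SRSF3, SRSF5, SRSF6, SRSF7 and SRSF11. All 10 were found among 59609 gene names, and all 10 passed the minimum of 1 FPKM in at least 1 library that left 16593 genes for testing. FPKM, the fragments of a gene per length of its exons and per depth of the library, is a level per length. Levels are therefore set side by side between genes here. The length used for each gene in the deposited values is not given, so ratios and orders between genes are uncertain to that extent. The genes were chosen by their RNA levels and changes in these same libraries, which were already known, so their changes are given as a description, and the calls of the fit support nothing beyond the values.

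SR proteins bind RNA through RNA recognition motifs and bind other splicing factors through a stretch rich in arginine and serine. They mark exons for the spliceosome and accompany messenger RNA during export. Between rounds of splicing they are stored in nuclear speckles, bodies whose core is built on the large, disordered proteins SRRM2 and SON. Many SR protein genes limit their own RNA by splicing in a poison exon, which sends the transcript to nonsense-mediated decay.

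All cells were of the same line, with the genotype given as WT, and were seeded for 24 h in complete DMEM medium. The control group, of 2 libraries, was then kept in control DMEM for 48 h. The glucose deprivation group, of 2 libraries, was kept for 48 h in DMEM without glucose, and the glutamine deprivation group, with 1 library used here, in DMEM without glutamine, both with 10% dialyzed serum. Dialyzed serum is not named for the control medium, so the change of serum and the loss of a nutrient cannot be told apart in either comparison with control. The direct comparison of both deprived media shares the dialyzed serum. Nothing says that the replicates were separate cultures, so their spread may be technical, and a single line stands for the tumour type.

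Total RNA depleted of ribosomal RNA was sequenced, and the inferred depth ran from 34530000 to 48930000 reads per library. Of 12 epithelial and lung markers, 3 reached 1 FPKM in at least 1 control library. In the glucose-deprived libraries 2 did, and in the glutamine-deprived library 3. KRT18 was highest at 16.0 to 21.7 FPKM over the libraries, while KRT19, SFTPB and SCGB1A1 were listed at 0. Of 18 markers of blood, vessel, stromal, liver and neural cells, 0 reached 1 FPKM, and CD3E was listed at 0 in every library. The summed level of those 18 markers was 1.48 to 2.22 FPKM in control, 1.68 to 1.73 in glucose deprivation and 2.90 in glutamine deprivation, and its part in the results was not tested. Scaling to the total of each library, in place of the trimmed scaling used, raised the median log2 change of all genes by 0.25 in glutamine deprivation against control, by 0.18 between the deprived media and by 0.09 in glucose deprivation. The share of calls that were higher then went from 48.3% to 67.9% in glucose deprivation, from 47.9% to 91.1% in glutamine deprivation and from an even split to 85.6% between the deprived media. With the values as deposited the median shifted by 0.03 in glucose deprivation, 0.13 in glutamine deprivation and 0.10 between the deprived media, and the shares of higher calls were 54.2%, 67.4% and 68.1%.

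The scaffold gene SRRM2 rose in both deprived media, SON rose by less, and SRRM1 did not pass the threshold in any comparison with the scaling used, though other settings called it higher. Of the 7 SR protein genes, 6 fell in both deprived media, with SRSF7 and SRSF3 falling by the most. Among these 7 genes SRSF11 alone was called higher in glucose deprivation. Among the 10 genes, 3 were called higher and 6 lower in glucose deprivation, where limma at a Benjamini-Hochberg adjusted p under 0.05 called 54.9% of all tested genes, 26.5% higher and 28.4% lower. In glutamine deprivation 2 were called higher and 6 lower, against 51.2% of all tested genes called, 24.5% higher and 26.7% lower. Both counts share the control libraries. The median log2 change of all tested genes was 0.02 in glucose deprivation and 0.04 in glutamine deprivation.

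The 10 genes are abundant, and abundant genes as a whole leaned lower. Over the 4472 tested genes that averaged 10 FPKM or more, 52.7% were called lower and 21.4% higher in glucose deprivation, with a median log2 change of -0.16. In glutamine deprivation 65.2% of them were called lower and 10.6% higher, with a median of -0.31. The 6 of 7 SR protein genes called lower in glutamine deprivation therefore stand beside a background in which most abundant genes were called lower as well.

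**Figure D1:**
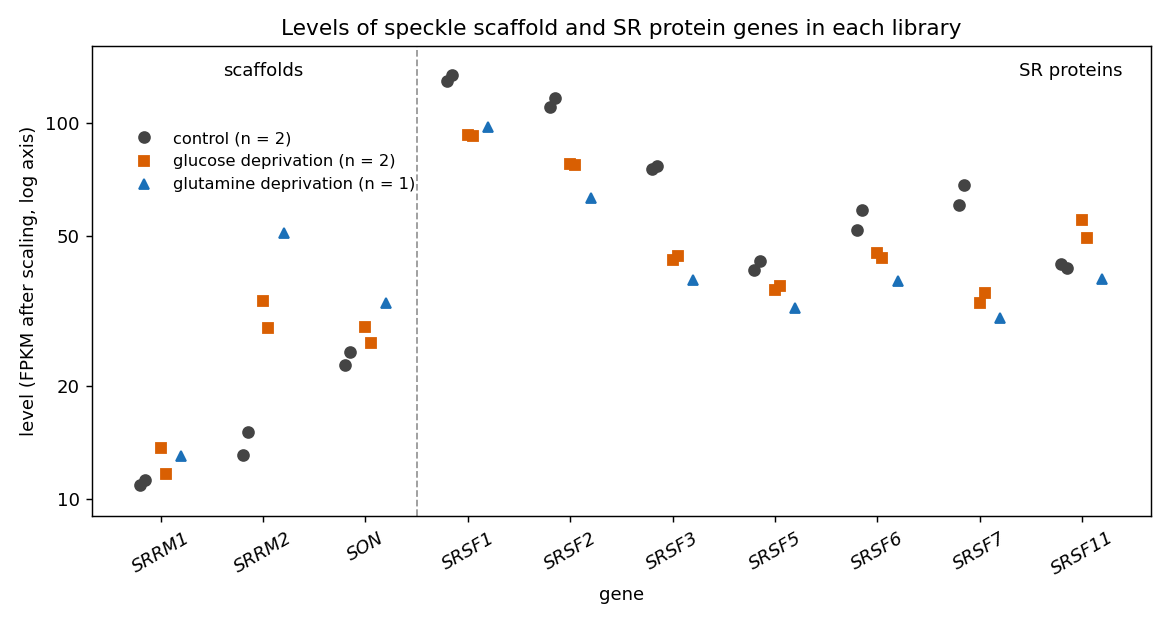
RNA levels of the 10 genes in each library, as scaled FPKM on a logarithmic axis, with a point per library (2 control, 2 glucose deprivation, 1 glutamine deprivation) and no means drawn. The SRRM2 points climb from 13.1 and 15.1 in control to 51.1 in glutamine deprivation, while the points of SRSF3 and SRSF7 drop from control to both deprived media.

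SRRM2 encodes a very large RS-rich protein at the core of nuclear speckles. The gene (ENSG00000167978.16) spans 2752329 to 2772538 of chromosome 16 on the forward strand in GRCh38, and its annotated exons cover 13.3 kb. Its level was 13.1 and 15.1 FPKM in the control libraries, 33.6 and 28.4 in glucose deprivation and 51.1 in glutamine deprivation. The 3 groups did not overlap, and the glutamine-deprived library was the highest of all 5. The means were 14.1 ± 1.40 FPKM (SD, n = 2) in control and 31.0 ± 3.71 (SD, n = 2) in glucose deprivation, a ratio of 2.20, and the ratio of glutamine deprivation to control was 3.63. On the log2(FPKM + 1) scale these changes were 1.08 ± 0.09 and 1.79 ± 0.11 (estimate ± SE), and 0.71 ± 0.11 separated glutamine from glucose deprivation. Of 16593 tested genes, 211 had a larger increase in glucose deprivation and 45 in glutamine deprivation. SRRM2 was the only one of the 10 genes at least 2-fold higher on this scale, against 1.71% and 3.05% of tested genes.

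SON binds RNA and DNA and shares the core of the speckle with SRRM2. The gene (ENSG00000159140.19) lies on chromosome 21 from 33542618 to 33577481, forward strand, with 13.2 kb of exons. Its level was 22.7 and 24.6 FPKM in control, 28.7 and 26.0 in glucose deprivation and 33.1 in glutamine deprivation. The groups were ordered as for SRRM2 and did not overlap, but the second glucose-deprived library lay only just above the second control. The log2 changes were 0.20 ± 0.06 in glucose deprivation, 0.47 ± 0.07 in glutamine deprivation and 0.27 ± 0.07 between the deprived media. The call in glucose deprivation was lost without either control library, with 0.14 left without replicate 1 and 0.25 without replicate 2, and without the first glucose-deprived library, with 0.14 left. In the direct comparison it was lost without either control library and without the second glucose-deprived library, with 0.20 left. The changes of SON were 0.31, 0.78 and 0.47 with scaling to the total, and only that in glutamine deprivation was called.

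SRRM1 is an RS-rich splicing coactivator found with exon junctions on spliced RNA. The gene (ENSG00000133226.16) lies on chromosome 1 from 24631716 to 24673267, forward strand. Its level was 10.9 and 11.2 FPKM in control, 13.7 and 11.6 in glucose deprivation and 13.0 in glutamine deprivation. Every deprived library lay above both controls, and the glutamine-deprived value fell between the glucose-deprived libraries. The log2 changes were 0.18 ± 0.07, 0.22 ± 0.08 and, between the deprived media, 0.04 ± 0.08, and none passed the threshold. The increase over control passed it in glucose deprivation without the second glucose-deprived library, at 0.29, and without the glutamine-deprived library, at 0.18. In glutamine deprivation it passed without either glucose-deprived library, at 0.22 both times. It also passed in glutamine deprivation with scaling to the total, at 0.52, and with the values as deposited, at 0.37, and in glucose deprivation with the values as deposited, at 0.22, and with the replicate block, at 0.18. SRRM1 is the gene with the fewest reads of the set, 3025 to 4362 inferred reads per library, which puts counting error alone at up to 1.82% of its level.

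SRSF3 and SRSF7 are small SR proteins that also act as adaptors for messenger RNA export. SRSF3 (ENSG00000112081.16) lies on chromosome 6 from 36594353 to 36605600, forward strand. Its level was 75.2 and 76.7 FPKM in control, 43.1 and 44.2 in glucose deprivation and 38.1 in glutamine deprivation. The groups did not overlap, and the replicates lay close together, with SDs of 1.05 FPKM in control and 0.778 FPKM in glucose deprivation. The log2 changes were -0.79 ± 0.04 and -0.98 ± 0.05 against control, and -0.19 ± 0.05 between the deprived media. SRSF7 (ENSG00000115875.18) lies on the reverse strand of chromosome 2 from 38743599 to 38751494. Its level was 60.5 and 68.1 FPKM in control, 33.2 and 35.4 in glucose deprivation and 30.3 in glutamine deprivation. Controls again stood far above all deprived libraries. The log2 changes were -0.89 ± 0.06 and -1.06 ± 0.08, the lowest of the 10 genes in each comparison with control, and the direct difference of -0.17 ± 0.08 was not called. Larger decreases than that of SRSF7 were seen in 275 tested genes in glucose deprivation. In glutamine deprivation SRSF7 was the only one of the 10 genes at least 2-fold lower, against 0.862% of tested genes, and in glucose deprivation, where 1.09% of tested genes were, none of the 10 was. In the direct comparison the SRSF3 call was lost without either control library, at -0.19 both times, and scaling to the total turned the difference to 0.01 for SRSF3 and 0.03 for SRSF7.

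SRSF1 and SRSF2 are among the best studied members of the family, and SRSF2 is also known as SC35. SRSF1 (ENSG00000136450.12) lies on the reverse strand of chromosome 17 from 58003360 to 58007346. Its level was 129 and 134 FPKM in control, 92.7 and 92.3 in glucose deprivation and 97.2 in glutamine deprivation. Every deprived library lay below both controls, and the glutamine-deprived library lay slightly above the glucose-deprived pair. The log2 changes were -0.50 ± 0.04 and -0.43 ± 0.05 against control, and the direct difference of 0.07 ± 0.05 was not called. With scaling to the total the changes of SRSF1 were -0.39 and -0.11, and neither was called. SRSF2 (ENSG00000161547.16), on the reverse strand of chromosome 17 from 76734115 to 76737374, was at 109.9 and 116 FPKM in control, 77.8 and 77.1 in glucose deprivation and 62.9 in glutamine deprivation. Here the glutamine-deprived library was the lowest, below the glucose-deprived pair. The log2 changes of SRSF2 were -0.54 ± 0.04, -0.84 ± 0.05 and, between the deprived media, -0.30 ± 0.05. They were -0.43, -0.52 and -0.09 with scaling to the total, and the last was not called.

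The exons of SRSF1 and SRSF2 are not theirs alone. In GENCODE release 29, 1890 bases or 56.6% of the SRSF1 exons are shared with AC015813.2, a gene model on the same strand, and reads there could be assigned to either. AC015813.2 was listed at 164 and 170 FPKM in control, 109.6 and 117 in glucose deprivation and 125 in glutamine deprivation, with the same order of groups as SRSF1. SRSF2 shares 1106 exonic bases, 36.7%, with MFSD11 on the opposite strand, which was listed at 2.69 to 3.61 FPKM over all libraries. The strand setting of the counting is not given in the sources used here, so the levels of SRSF1 and SRSF2 are uncertain to that extent. SRRM2 shares only 1.43% of its exonic bases with ELOB on the opposite strand, which was lower in the deprived libraries (69.5 to 77.8 FPKM) than in control (111 to 114 FPKM).

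SRSF5 and SRSF6 are SR proteins of the longer type, with a pair of RNA recognition motifs. SRSF5 (ENSG00000100650.15), on chromosome 14 from 69726900 to 69772005, forward strand, was at 40.6 and 42.9 FPKM in control, 36.0 and 36.9 in glucose deprivation and 32.2 in glutamine deprivation. SRSF6 (ENSG00000124193.14), on chromosome 20 from 43457928 to 43464247, forward strand, was at 52.0 and 58.8 FPKM in control, 45.1 and 43.6 in glucose deprivation and 38.1 in glutamine deprivation. In both genes the order was control, glucose deprivation, glutamine deprivation, with no overlap. The log2 changes of SRSF5 were -0.19 ± 0.04, -0.36 ± 0.05 and, between the deprived media, -0.17 ± 0.05. Those of SRSF6 were -0.31 ± 0.06, -0.53 ± 0.07 and -0.21 ± 0.07. For SRSF5 in glucose deprivation the call was lost without the second control library, at -0.16, and without the first glucose-deprived library, at -0.17. In the direct comparison the SRSF5 call was lost without any 1 of the control or glucose-deprived libraries, at -0.19 to -0.16, and the SRSF6 call without either glucose-deprived library, at -0.19 and -0.24. With scaling to the total, no change of SRSF5 or SRSF6 was called and the direct difference of SRSF5 turned to 0.03.

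SRSF11 encodes an RS-domain protein first described as p54, which differs from the other SR proteins in its RNA-binding part. The gene (ENSG00000116754.13) lies on chromosome 1 from 70205682 to 70253052, forward strand. Its level was 42.1 and 41.2 FPKM in control, 55.1 and 49.5 in glucose deprivation and 38.5 in glutamine deprivation. The glucose-deprived libraries were the highest and the glutamine-deprived library the lowest, with no overlap between groups. The log2 change was 0.32 ± 0.06 in glucose deprivation and -0.43 ± 0.07 from glucose to glutamine deprivation. The difference of -0.11 ± 0.07 between glutamine deprivation and control was not called, and it turned to 0.21 with scaling to the total and 0.05 with the values as deposited. Without the second control library the increase in glucose deprivation was no longer called, at 0.30.

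**Figure D2:**
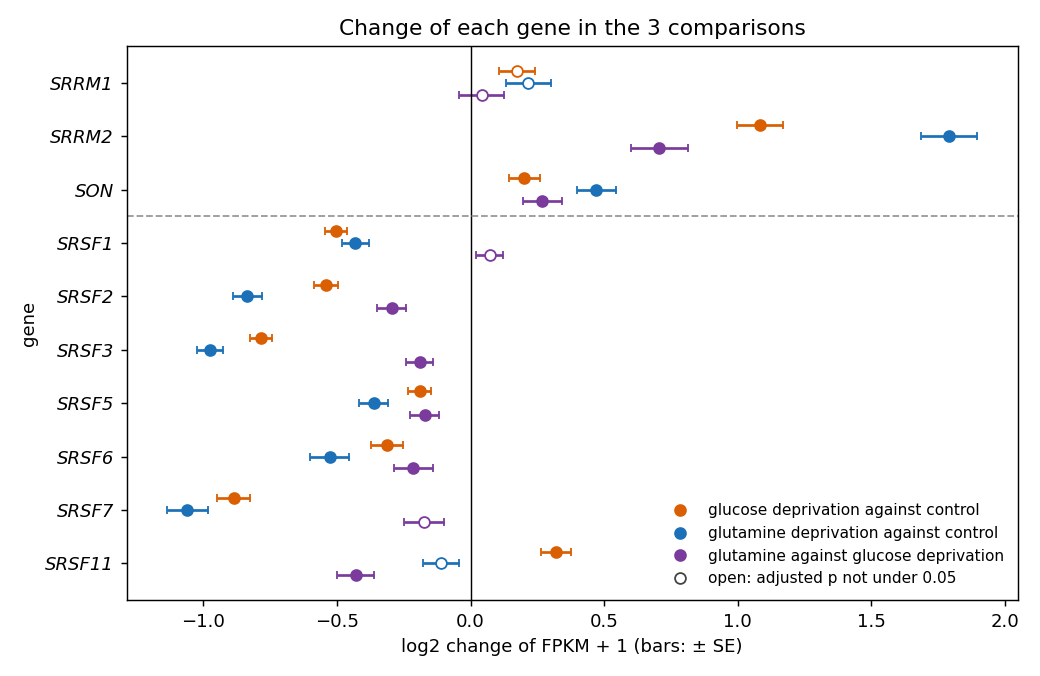
Log2 changes of the 10 genes on the log2(FPKM + 1) scale in the 3 comparisons, by colour, with bars of ± SE from the fit over all genes and open points where the adjusted p was not under 0.05. SRRM2 stands highest in each comparison, at 1.08, 1.79 and 0.71, and SRSF7 lowest in both comparisons with control, at -0.89 and -1.06.

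In glutamine against glucose deprivation 2 of the 10 genes were called higher, SRRM2 and SON, and 5 lower, SRSF2, SRSF3, SRSF5, SRSF6 and SRSF11. The fit called 44.6% of all tested genes in this comparison, 22.3% higher and 22.3% lower. Of the abundant genes, 44.3% were called lower and 18% higher. None of the 10 genes differed by 2-fold between the deprived media, against 1.9% of tested genes that were at least 2-fold higher and 0.808% lower. With scaling to the total SRRM2 was the only one of the 10 genes still called, at 0.91. In no setting was the direction of SRRM2, SON, SRSF2, SRSF6 or SRSF11 in this comparison reversed.

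The order of levels among the 10 genes differed between media. In control SRSF1 was highest, followed by SRSF2, SRSF3, SRSF7 and SRSF6, and then by SRSF5 and SRSF11, whose libraries overlapped at 40.6 to 42.9 and 41.2 to 42.1 FPKM. The scaffolds came last, SON before SRRM2 and SRRM1. In glucose deprivation SRRM2, at 28.4 to 33.6 FPKM, overlapped SRSF7, at 33.2 to 35.4 FPKM, on its upper side and SON, at 26.0 to 28.7 FPKM, on its lower side, and SRSF6 and SRSF3 overlapped too. In glutamine deprivation SRRM2 came next after SRSF1 and SRSF2, and SRSF11, SRSF3 and SRSF6 lay within 1 FPKM of one another. SRRM2 had 80.2% of tested genes below it in control, 93.5% in glucose deprivation and 96.9% in glutamine deprivation. SRRM1 stayed last of the 10 genes in every group.

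Set against each other, the scaffold genes gained on the SR protein genes in both deprived media. The summed level of the 7 SR protein genes was 10.9 and 10.6 times that of the 3 scaffold genes in control, 5.04 and 5.74 times in glucose deprivation and 3.47 times in glutamine deprivation. The groups did not overlap, and both sums moved. The scaffold sum was 46.7 and 50.9 FPKM in control, 76.0 and 66.1 in glucose deprivation and 97.2 in glutamine deprivation, and most of its increase was SRRM2. The SR sum was 509 and 538 FPKM in control, 383 and 379 in glucose deprivation and 337 in glutamine deprivation. For the single pair of SRSF3 and SRRM2 the ratio went from 5.74 and 5.09 in control to 1.28 and 1.56 in glucose deprivation and 0.747 in glutamine deprivation, where SRRM2 was the higher of both. In bulk RNA, a changed share of cells holding a transcript and a changed amount per cell cannot be told apart.

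On the log2 scale, the mean change of the scaffold genes was 0.49 in glucose deprivation and 0.83 in glutamine deprivation, and that of the SR protein genes was -0.41 and -0.61. The scaffold minus SR difference was thus 0.90, 1.44 and, between the deprived media, 0.54, where the replicates of the per-library difference had a pooled SD of 0.0956. The per-library difference in mean log2(FPKM + 1) was -2.09 and -2.06 in control, -1.08 and -1.27 in glucose deprivation and -0.63 in glutamine deprivation. The choice of genes fixes its direction, and much of its size is SRRM2, since the median scaffold change against control was that of SON, 0.20 and 0.47. SRSF11 stood apart from the other SR protein genes by its increase in glucose deprivation.

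**Figure D3:**
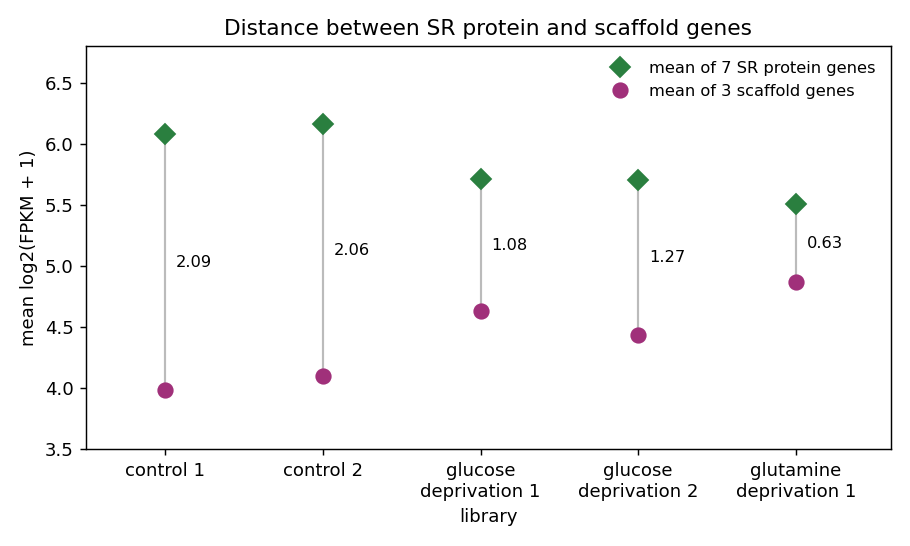
Mean log2(FPKM + 1) of the 3 scaffold genes (circles) and of the 7 SR protein genes (diamonds) in each library, with the gap between them printed beside the grey line as SR minus scaffold. The gap narrows from both sides, and is widest in the control libraries and narrowest in the glutamine-deprived library.

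The scaffold and SR protein genes also differ in base composition. The longest transcript of SRRM2 is 56.2% G and C, above 76.2% of tested genes, those of SRRM1 and SON are at 47.8% and 47.5%, close to the median of 47.9%, and the 7 SR protein transcripts run from 36.6% in SRSF11 to 45.6% in SRSF2. Over 16225 genes, which share these 5 libraries, GC content and log2 change had a Pearson r of -0.03 and a Spearman rho of -0.02 in glucose deprivation, 0.17 and 0.20 in glutamine deprivation and 0.23 and 0.25 between the deprived media. From the 3245 genes lowest in GC to the 3245 highest, the median log2 change in glutamine deprivation went from -0.11 to 0.16. Removing a trend in GC content and exonic length left SRRM2 at 0.94 in glucose deprivation, 1.43 in glutamine deprivation and 0.50 between the deprived media, all still called. SRSF7 was left at -0.76 and -0.79 against control. SON was left at 0.07 in glucose deprivation, no longer called, and at 0.22 in glutamine deprivation, still called. SRSF5 was left at -0.11 in glucose and -0.17 in glutamine deprivation, SRSF6 at -0.21 and -0.27, all still called, and SRSF1 at -0.14 in glutamine deprivation and at 0.24, now called, between the deprived media. Between the deprived media SRSF2, at -0.20, and SRSF11, at -0.34, were still called lower. SRSF3, at -0.11, SRSF5, at -0.06, and SRSF6, at -0.06, were no longer called there. The scaffold minus SR difference was then 0.72, 1.01 and 0.28.

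**Figure D4:**
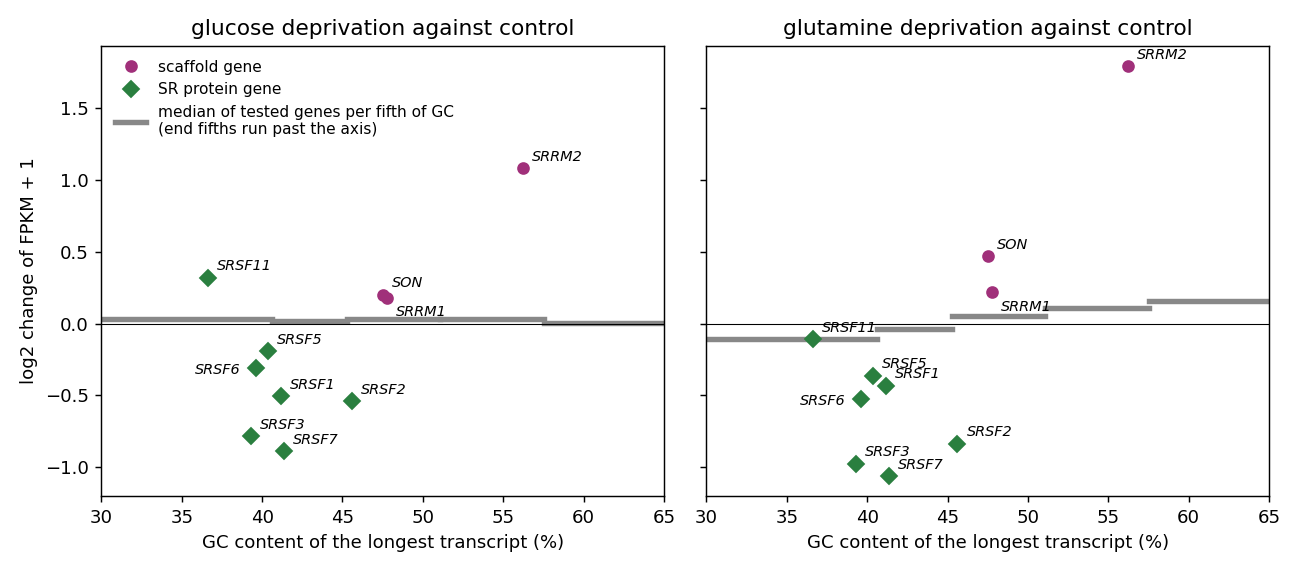
Log2 change of the 10 genes on the log2(FPKM + 1) scale against the GC content of their longest transcript, in both comparisons with control, with grey bars at the median of all tested genes in 5 equal-sized bins of GC content. SRRM2, at 56.2% GC, lies far above the grey bars in both panels, and 6 of the 7 SR protein genes lie below them in the left panel.

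All 10 genes have at least 1 annotated transcript subject to nonsense-mediated decay, which holds for 43.8% of 11910 tested protein-coding genes, and 8 have a transcript with a retained intron, against 56.0%. Gene-level values add such transcripts to the coding ones, so a switch between them cannot be seen here. Of 10 nonsense-mediated decay factors, 3 rose and 2 fell in glucose deprivation, and 5 rose and 2 fell in glutamine deprivation, with medians of 0.13 and 0.20. SMG6, the endonuclease of the pathway, rose by 0.41 ± 0.05 and 0.64 ± 0.06, and SMG8, a regulator of the kinase SMG1, changed by -0.32 ± 0.06 and -0.65 ± 0.07. Scaled to the total, 2 of the 10 factors were called higher in glucose deprivation and 5 in glutamine deprivation, 0 were called lower in either, SMG8 included, and the medians were 0.23 and 0.51. The counts in glucose deprivation are near the 26.5% and 28.4% of all tested genes called higher and lower. In glutamine deprivation 24.5% and 26.7% of all tested genes were called higher and lower. Under scaling to the total, most calls over all tested genes were higher in both comparisons.

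Promoter sequences are shown for the scaffold genes SRRM2 and SON and for SRSF3 and SRSF7, which had the largest increases and decreases of the 10 genes in glutamine deprivation against control. They come from RefSeq on GRCh38.p14, run 5′ to 3′ on the gene's strand and cover 250 bases before to 50 after the annotated start, 300 in all. The SRRM2 window is chr16:2752388-2752687 and that of SON chr21:33542788-33543087, both forward. The SRSF3 window is chr6:36594112-36594411, forward, and that of SRSF7 chr2:38751445-38751744, reverse. Capitals mark any match, on either strand, to 8 motifs: the TATA box TATAAA, the CCAAT box CCAAT, the E-box CACGTG, the cAMP response element TGACGTCA, the amino acid response element TGATGNAAT, the ETS motif CCGGAAG, the NRF1 motif and the GC box GGGCGG.
SRRM2: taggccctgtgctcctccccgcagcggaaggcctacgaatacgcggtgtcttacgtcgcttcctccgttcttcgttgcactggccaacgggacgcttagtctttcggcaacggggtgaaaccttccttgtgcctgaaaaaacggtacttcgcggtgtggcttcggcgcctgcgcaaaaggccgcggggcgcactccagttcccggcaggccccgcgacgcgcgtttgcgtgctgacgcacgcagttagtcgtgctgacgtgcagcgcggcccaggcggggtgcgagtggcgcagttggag
SON: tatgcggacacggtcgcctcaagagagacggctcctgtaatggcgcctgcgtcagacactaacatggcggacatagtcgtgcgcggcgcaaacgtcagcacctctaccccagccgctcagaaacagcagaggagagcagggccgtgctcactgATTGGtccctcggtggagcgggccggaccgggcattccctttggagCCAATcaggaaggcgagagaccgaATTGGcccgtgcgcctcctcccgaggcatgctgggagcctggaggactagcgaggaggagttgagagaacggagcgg
SRSF3: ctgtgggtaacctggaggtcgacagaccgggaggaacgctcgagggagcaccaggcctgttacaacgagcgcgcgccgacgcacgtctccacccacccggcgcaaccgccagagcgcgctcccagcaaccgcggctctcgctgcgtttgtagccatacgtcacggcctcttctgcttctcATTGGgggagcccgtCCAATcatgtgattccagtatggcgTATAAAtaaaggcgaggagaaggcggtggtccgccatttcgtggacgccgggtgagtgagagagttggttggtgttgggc
SRSF7: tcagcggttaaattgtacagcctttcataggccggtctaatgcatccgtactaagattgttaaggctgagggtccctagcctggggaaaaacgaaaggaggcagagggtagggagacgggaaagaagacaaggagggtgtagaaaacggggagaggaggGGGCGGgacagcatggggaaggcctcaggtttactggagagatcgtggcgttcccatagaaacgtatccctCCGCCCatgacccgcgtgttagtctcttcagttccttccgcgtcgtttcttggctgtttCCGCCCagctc

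The SRRM2 window held none of the 8 motifs, while SON held 3 CCAAT boxes. SRSF3 held a TATA box and 2 CCAAT boxes, and SRSF7 held 3 GC boxes. Of 9 genes of the set with a promoter in the table (SRSF2 is not among them), 2 held the TATA box, found in 12.0% of 27305 promoters, 3 the CCAAT box, found in 35.7%, 4 the GC box, found in 44.6%, and 1 the ETS motif, found in 10.7%. The E-box, the cAMP response element, the amino acid response element and the NRF1 motif, at 7.43%, 1.98%, 1.02% and 1.36% of promoters, were in none of the 9. No motif was held by all genes that fell or by all that rose. These are matches of letters in a short window and say nothing of binding.

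The rest of the SR family and the wider splicing machinery were counted by lists. Most of these genes, the kinases excepted, are abundant. Their counts are to be read beside the 52.7% and 65.2% of abundant genes called lower in glucose and glutamine deprivation. Of all tested genes, 28.4% and 26.7% were called lower. Called higher were 21.4% and 10.6% of abundant genes, and 26.5% and 24.5% of all tested genes. With scaling to the total, most calls over all tested genes were higher, by the shares given at the start. Counts of lower calls under that scaling are to be read beside that. Of 7 other SR family genes, 5 fell and 1 rose in glucose deprivation and 5 fell and 0 rose in glutamine deprivation, with medians of -0.38 and -0.45. TRA2A and TRA2B, activators related to SR proteins, fell most in glucose deprivation, by 0.74 ± 0.04 and 0.62 ± 0.04, followed by SRSF9, which fell by 0.44 ± 0.04. In glutamine deprivation TRA2B fell by 0.64 ± 0.05, SRSF10 by 0.54 ± 0.06 and TRA2A by 0.48 ± 0.05. With scaling to the total 2 of these 7 genes, TRA2A and TRA2B, were called lower in glucose deprivation and 0 in glutamine deprivation. TRA2A was higher in glutamine than in glucose deprivation by 0.26 ± 0.05, a call also lost with that scaling.

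Genes of other RS-domain proteins did not move with either class as a whole. Of 20 tested, 9 rose and 3 fell in glucose deprivation, with a median of 0.10, and 3 rose and 8 fell in glutamine deprivation, with a median of -0.09 that turned to 0.22 with scaling to the total. LUC7L, a factor of the U1 particle, rose by 0.66 ± 0.07 in glucose deprivation and was lower in glutamine than in glucose deprivation by -0.85 ± 0.08. SCAF1 and SCAF4, which bind the tail of RNA polymerase II, rose in glutamine deprivation by 0.75 ± 0.07 and 0.74 ± 0.06, and RSRC2 fell by 0.68 ± 0.06. U2AF2, which reads the polypyrimidine tract, fell by 0.44 ± 0.05 in glucose deprivation. The calls of LUC7L, SCAF1 and SCAF4 held with scaling to the total, while RSRC2, at -0.40, and U2AF2, at -0.33, were not called and 0 of the 20 were called lower against control. Between the deprived media 12 of the 20 were lower and 2 higher under glutamine deprivation. Of all tested genes 22.3% were called lower and 22.3% higher there, and of abundant genes 44.3% and 18%. With scaling to the total 1 of the 20 was lower and 2 were higher, and the median went from -0.19 to 0.01.

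Kinases that phosphorylate the RS domain, with the import receptor TNPO3, gave 8 higher and 3 lower of 14 in glucose deprivation and 4 higher and 4 lower in glutamine deprivation. CLK2 rose by 0.49 ± 0.04 in glucose deprivation, where TNPO3 fell by 0.33 ± 0.04 and DYRK3, which dissolves speckles when overactive, by 0.40 ± 0.06. CLK1, a nuclear kinase of SR proteins, was at 13.3 ± 0.79 FPKM in control (SD, n = 2), 15.8 ± 0.18 in glucose deprivation (SD, n = 2) and 8.48 in glutamine deprivation. In glutamine deprivation CLK1 fell by 0.59 ± 0.06 from control and by 0.83 ± 0.06 from glucose deprivation on the log2 scale. SRPK1, the cytoplasmic kinase of the family, fell by 0.38 ± 0.05 in glutamine deprivation. Scaled to the total, where most calls over all tested genes were higher, 0 of the 14 were called lower against control. SRPK1 was then at -0.07 and CLK1 at -0.30 in glutamine deprivation, and TNPO3 at -0.22 and DYRK3 at -0.31 in glucose deprivation. The increase of CLK2 and the difference of CLK1 between the deprived media kept their calls, and the list median in glutamine deprivation went from -0.07 to 0.15.

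Of 19 other proteins of the speckle, 11 fell and 3 rose in glucose deprivation, and 14 fell and 0 rose in glutamine deprivation, with medians of -0.17 and -0.44. These shares lie near those of abundant genes called lower. With scaling to the total 3 and 2 of them were called lower, among them ALYREF, EIF4A3, MAGOH and PQBP1. ALYREF, an export adaptor, fell by 0.90 ± 0.05 and EIF4A3, a core protein of the exon junction complex, by 0.62 ± 0.06 in glucose deprivation. MAGOH, its partner in that complex, fell by 0.87 ± 0.06 and PQBP1 by 0.80 ± 0.07 in glutamine deprivation. PQBP1 was also lower in glutamine than in glucose deprivation, by -1.02 ± 0.07.

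The core spliceosome gave 22 of 30 genes lower and 3 higher in glucose deprivation, and 20 lower and 6 higher in glutamine deprivation, with medians of -0.30 and -0.45. With scaling to the total 10 and 8 were called lower and 1 and 6 higher. Genes of the Sm ring were among those that fell most: SNRPG fell by 0.85 ± 0.05 in glucose deprivation, and SNRPF by 1.12 ± 0.08 and SNRPE by 1.00 ± 0.06 in glutamine deprivation. SF3B6, which contacts the branch point, fell by 0.78 ± 0.05 and 1.03 ± 0.07. PRPF8, the large protein at the heart of the spliceosome, was higher in glutamine than in glucose deprivation by 0.55 ± 0.06. Of 24 hnRNP genes, whose proteins often oppose SR proteins, 13 fell and 3 rose in glucose deprivation, and 18 fell and 5 rose in glutamine deprivation. HNRNPAB fell by 0.79 ± 0.04 and 0.63 ± 0.05, while HNRNPUL2 rose by 0.74 ± 0.06 in glutamine deprivation. The hnRNP medians were -0.19 and -0.36, and with scaling to the total 5 and 0 of these genes were called lower, HNRNPAB among them in glucose deprivation only.

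Both long non-coding RNAs listed for their place beside speckles were higher in the deprived media. MALAT1, which gathers in speckles, was at 93.9 ± 2.2 FPKM in control (SD, n = 2), 252 ± 37 in glucose deprivation (SD, n = 2) and 161 in glutamine deprivation. It changed by 1.40 ± 0.09 and 0.77 ± 0.11 on the log2 scale, so its order between the deprived media was the opposite of that of SRRM2. That direct difference of MALAT1, -0.63 ± 0.11, was -0.42 with scaling to the total and no longer called. NEAT1, the RNA of paraspeckles, was at 5.41 ± 0.68 FPKM in control, 19.1 ± 3.0 in glucose deprivation (both SD, n = 2) and 24.3 in glutamine deprivation, and it changed by 1.65 ± 0.10 and 1.98 ± 0.13.

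**Figure D5:**
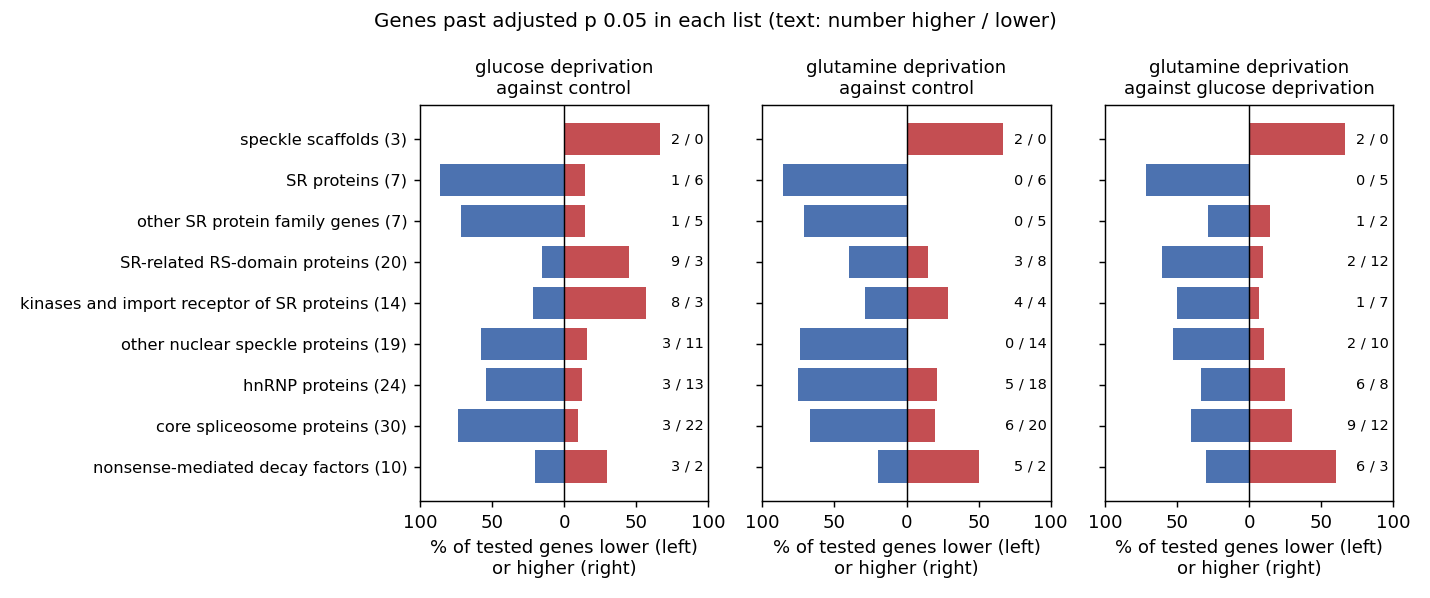
Share of the tested genes of each list called higher (bars to the right) or lower (bars to the left) at an adjusted p under 0.05 in the 3 comparisons, with the number tested in brackets and the numbers higher and lower printed at the right. Bars to the left dominate against control for the SR proteins, the other speckle proteins, the hnRNP proteins and the core spliceosome, where 22 of 30 and 20 of 30 genes were lower.

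Other genes had patterns near those of the set. Likeness was the Euclidean distance, over all 5 libraries, between log2(FPKM + 1) values set to the control mean, among 6031 genes with a mean of at least 3 on that scale. ATXN2L lay nearest to SRRM2, at 0.212, with 5.75 ± 0.17 FPKM in control, 12.8 ± 0.61 in glucose deprivation (both SD, n = 2) and 20.2 in glutamine deprivation. Next came the very short gene models RNU7-124P and MIR3122, then SLC7A1, a transporter of basic amino acids, and AC106886.6, at 0.361 to 0.471. BPTF, a chromatin remodelling factor, lay nearest to SON, at 0.0817, before ASH1L, TET1, RGP1 and QSER1, at up to 0.0967. ATP5MC3, a subunit of the mitochondrial ATP synthase, lay nearest to SRSF3, at 0.0278, before CDC123, POMP, MRPL51 and ABRACL, at up to 0.110. SRRM2 thus had no neighbour as near as those of SON and SRSF3. The distance depends on the size of the changes, and few genes changed as much as SRRM2. In glutamine deprivation 45 tested genes had a larger increase than SRRM2 and 2952 than SON, and 158 had a larger decrease than SRSF3. A larger distance is therefore not read as a more particular pattern.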

How the data were processed

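RNA levels came from total RNA of 95D cells, depleted of ribosomal RNA and sequenced in pairs. The submitters' processing notes name HISAT2 2.0.5, StringTie and hg38. Which annotation, StringTie version or strand setting was used is not given in the sources used here. Values the authors deposited were taken as FPKM, though no header names the unit. Of low values of single-exon genes, 95.2% to 95.8% fell on whole reads within 0.05 reads. The depth of each library was chosen to make that share largest. Any unit of reads per length could give such steps, so they do not single out FPKM, and the unit is assumed. The labels describe 6 libraries, but 1 value column, in the table for glutamine deprivation, has a header that names another group; it was not used, so 5 libraries entered.

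FPKM were scaled by the trimmed mean of log ratios, with 30% of ratios and 5% of abundances trimmed at each end, and printed levels are scaled. The planned test for normalized values was used: limma 3.58.1 (R 4.3.3) with log2(FPKM + 1) as input, a coefficient per group over all 5 libraries, 2 residual degrees of freedom, variances moderated over inferred reads, and two-sided Benjamini-Hochberg adjusted p-values over 16593 genes at a threshold of 0.05. For the single library of glutamine deprivation the spread of the others is assumed. Changes on this scale understate those of low genes.

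The 10 genes and the 8 further gene lists were chosen with earlier results of these data known. From each list the 3 called genes with the largest change were eligible to be named, and 5 genes of like pattern for SRRM2, SON and SRSF3. Exon length, GC content and overlaps came from GENCODE release 29, promoters from RefSeq. Alternatives were other scalings, a pseudocount of 0.1, no filter, another variance trend, the replicate number as a block, removal of a GC and length trend, and each library left out in turn.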

Additional observations from a re-analysis of the deposited data

How the results depend on the processing

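SRRM2, SRSF2, SRSF3 and SRSF7 kept their direction and call against control in all 12 settings tried in glucose deprivation and all 11 in glutamine deprivation. Scaling to the total called 5491 genes and 5 of the 10 in glucose deprivation, and 4265 genes and 1 of the 10 in the direct comparison. The number of the 10 called in the direct comparison was 4 with the values as deposited, 4 with a variance trend over the level and 2 with no filter, where SRRM2 kept a change of 0.71 but was not called (adjusted p = 0.080 in limma, range over settings 0.00021 to 0.080). With no filter 5 of the 10 were called in glucose deprivation. The numbers of all genes called in these settings are not given beside these counts. The counts are therefore no result about the 10 genes. Removing the GC and length trend left a scaffold minus SR difference of 0.72, 1.01 and 0.28. SRSF11 in glutamine deprivation against control reversed to 0.21 with scaling to the total and to 0.0543 with the values as deposited. In the direct comparison SRSF3 reversed to 0.0132, SRSF5 to 0.0304 and SRSF7 to 0.0279 with scaling to the total. There SRRM1 reversed to -0.0017 with the replicate block, to -0.0374 with the GC and length trend removed and, with each library left out in turn, ranged from -0.0700 without the second glucose-deprived library to 0.147 without the first. The cause of these changes was not tested. SON lost its call in glucose deprivation in 7 of 12 settings and in the direct comparison in 6 of 11. In the direct comparison SRSF6 lost its call in 8 of 11 settings. SRSF5 lost its call there in 9 of 11 with its direction kept, and in 1 more, scaling to the total, with its direction reversed.

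Leaving out each library in turn gave 5681 to 9096 genes called in glucose deprivation, 5569 to 8480 in glutamine deprivation and 5386 to 6303 in the direct comparison. Without control replicate 1 the counts were 5681 and 5639 against control, and without control replicate 2 they were 5918 and 5569. Of the 10 genes, 6 to 10, 8 to 9 and 4 to 5 were called, with 4 in the direct comparison without either control library and without the second glucose-deprived library. The scaffold minus SR difference ranged from 0.81 to 0.99, 1.42 to 1.46 and 0.45 to 0.63.

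No pairing by replicate number was seen. The deviations of control 1 and glucose deprivation 1 from their group means had a correlation of -0.0224 across genes. A single correlation does not show that the replicates were unpaired, and the glutamine-deprived library did not enter it. With the replicate block 8867, 7630 and 6420 genes were called, with 10, 8 and 4 of the 10 genes among them, and the scaffold minus SR difference was 0.90, 1.40 and 0.50. With 2 replicates in control and in glucose deprivation and 1 library in glutamine deprivation, the spread between replicates is poorly known. It was therefore not ranked against counting error, which was at most 1.82% for any of the 10 genes.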
